A study of Mus musculus with 764 samples.

Results

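Serpins are protease inhibitors that trap their target: the protease cleaves an exposed loop of the serpin, the reactive centre loop, and is held and distorted in the complex. Members of the clade B family stay inside the cell, where they guard the cytosol against proteases that leak from granules or lysosomes. Cytotoxic lymphocytes are known to express them beside the granzymes, the serine proteases of their killing granules. The serpins described here were Serpinb9, Serpinb6b, Serpinb6a, Serpinb1a and Serpine2, which were chosen by name. All 5 members had a row in the tables, among 63 serpin rows and 23997 gene rows.

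Mice received anti-CD3, and IL-10+ CD4+ T cells sorted from their spleen and small intestine were sequenced one by one with SMART-seq2, which copies whole transcripts and counts reads rather than molecules. The mice carried an eGFP reporter of Il10 and an mRFP reporter of Foxp3, both tissues came from treated mice only, and Foxp3+ IL-10 producers were part of the sort as a control. The gut cells were taken as intraepithelial and lamina propria lymphocytes, which the labels do not tell apart, and the labels gave no animal, age or strain. Of 764 cells, 190 came from the small intestine and 574 from the spleen. After low-read cells and cells called S or G2M were left out, 136 small intestine and 400 spleen cells were kept, with 162801 to 622997 reads per cell.

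Wells divided the spleen cells into 3 sets of 133 cells (plate p1, columns 1 to 12), 145 cells (plate p1, columns 13 to 24) and 122 cells (plate p2). Values of the spleen sets are given below in that order, called plate order. All small intestine cells came from columns 13 to 24 of p2, where tissue and well column cannot be told apart. Because each sample was 1 cell and no animal was named, each tissue counted as 1 sample, no test was possible and no difference between the tissues has a replicate check. The values of the 3 spleen sets are therefore given beside the main comparisons of the members. Levels are given as CPM, the reads of a gene scaled to a common total per cell. T cell identity was plain, since Cd3e had at least 10 reads in 100% of the kept cells of both tissues and the mean of Cd4 was 1500 CPM in gut cells and 1532 to 1589 CPM in the spleen sets. Defining markers of neutrophils and mast cells were near 0: the 8 markers of the list summed to a mean of 1.07 CPM (small intestine) and 0.876 CPM (spleen), with Elane, Mcpt1, Mcpt2 and Tpsb2 at 0. Of the lists of markers of B, myeloid and NK cells, the median share of cells with at least 10 reads was at most 1.64% in each set. The 2 CD8 genes summed to a mean of 531 CPM in gut cells, against 16.6 to 80.2 CPM over the spleen sets, and the 4 regulatory T cell markers to 214 CPM, against 338 to 1205 CPM. A Cd8a read was present in 39 small intestine cells, and a Foxp3 read in 9, against 85, 26 and 8 cells of the spleen sets in plate order.

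4 of the members lie on mouse chromosome 13. In the GRCm38 build (GENCODE M21 annotation), Serpinb1a spans chr13:32842092-32851185 on the minus strand, Serpinb6b chr13:32965209-32979067 and Serpinb9 chr13:33003250-33017957 on the plus strand, and Serpinb6a chr13:33917918-34002794 on the minus strand. Serpine2 lies apart, at chr1:79794197-79861180 on the minus strand. The inhibitory loop of a serpin precedes a conserved signature near the C-terminus, and the loop is where members of the family differ in the protease they take. The coding sequences of that stretch are shown for this reason, each with 75 bases before the signature in lower case and the 33 signature bases in capitals, from the longest open reading frame among the GENCODE M21 protein-coding transcripts of the gene.
Serpinb9: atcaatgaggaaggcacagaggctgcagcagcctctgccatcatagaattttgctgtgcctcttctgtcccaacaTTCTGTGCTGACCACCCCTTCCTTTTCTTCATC
Serpinb6b: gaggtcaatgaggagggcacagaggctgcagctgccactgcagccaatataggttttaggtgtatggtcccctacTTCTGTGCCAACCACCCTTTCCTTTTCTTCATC
Serpinb6a: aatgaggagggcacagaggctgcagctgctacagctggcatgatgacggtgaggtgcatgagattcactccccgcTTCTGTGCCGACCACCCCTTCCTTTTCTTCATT
Serpinb1a: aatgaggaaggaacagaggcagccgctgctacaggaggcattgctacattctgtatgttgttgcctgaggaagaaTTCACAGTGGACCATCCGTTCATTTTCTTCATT
Serpine2: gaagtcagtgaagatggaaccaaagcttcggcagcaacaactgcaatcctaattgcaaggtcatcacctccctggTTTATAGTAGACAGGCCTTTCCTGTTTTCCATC
Over the whole coding sequence, Serpinb6b and Serpinb6a were identical at 86.4% of 1131 aligned bases, the highest value of the 10 pairs. Serpinb9 matched Serpinb6b at 70.8% and Serpinb6a at 69.7%. The other 7 pairs ranged from 61.1% to 64.9%.

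Such likeness bears on the counts, because reads of one paralog can be assigned to another. Of all distinct stretches of 50 bases in the transcripts of a member, the share that also occurred in transcripts of another gene was 0.378% for Serpinb9, all of them in Serpinb9b. The share was 2.92% for Serpinb6b, mostly Serpinb6c, and 2.81% for Serpinb1a, mostly Serpinb1c and Serpinb1b. Serpine2 shared 0.303%. Only 8 of these stretches were common to Serpinb6b and Serpinb6a. Serpinb6a is the uncertain member: 25.1% of its stretches occurred in other genes, chiefly Nqo2, 1110046J04Rik and Ripk1, whose annotated transcripts overlap it, and the way the counting assigned such reads is not given in the sources used here.

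Each of the 5 members was higher in the small intestine. A gene was called higher when the log2 ratio of its mean CPM (small intestine over spleen, 1 CPM added to each) was at least 1 and its small intestine mean lay above all 3 spleen sets. The rule was applied to the 8362 genes whose 2 tissue means averaged at least 10 CPM. Of these, 7.43% were higher and 15.2% were lower, and the median log2 ratio over all of them was -0.21. A gene near 0 in 1 tissue could enter only through the other, as Serpine2 did through the small intestine. The log2 ratio was 5.47 for Serpine2, 2.94 for Serpinb1a, 2.76 for Serpinb9, 2.73 for Serpinb6b and 1.84 for Serpinb6a. Against the single spleen sets it ran from 5.22 to 6.05, 2.50 to 3.38, 2.46 to 2.98, 2.65 to 2.85 and 1.64 to 2.03 in the same order of genes. Their ranks from the top among the 8362 genes were 16, 97, 112, 117 and 254. Since the members were chosen with earlier results known, these ranks describe them and test nothing.

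Serpinb9, the inhibitor of granzyme B that protects killer cells from their own granules, had a mean of 1446 CPM in the small intestine. The spleen sets had 186, 263 and 182 CPM in plate order. Over cells it ranged from 0 to 13005 CPM with a median of 748 in the small intestine, while the median was 0 in each spleen set and the highest spleen cell reached 5565 CPM. The ranges of single cells thus overlapped, whereas the mean of the small intestine was at least 5 times that of each spleen set. At least 10 reads of Serpinb9 were present in 74.3% of small intestine cells (95% exact binomial interval 66.1% to 81.4%). The share was 23.3% (16.4% to 31.4%), 32.4% (24.9% to 40.7%) and 21.3% (14.4% to 29.6%) in the spleen sets. These intervals cover the counting of cells within 1 sample per tissue and not the spread between animals. Those of the spleen sets overlapped one another.

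Serpinb6b, a mouse paralog known as an inhibitor of granzyme A, was the most widely detected member. Its mean was 2014 CPM in the small intestine, against 278, 308 and 321 CPM over the spleen sets. The median over small intestine cells was 1535 CPM and the highest 8019 CPM, and in the spleen the median was 0 in all 3 sets and the highest cell held 6837 CPM. The spleen sets lay close together, the highest mean being 1.15 times the lowest. At least 10 reads were present in 88.2% of small intestine cells (81.6% to 93.1%). In the spleen sets the share ran from 31.1% to 35.2%, a spread inside each of their intervals.

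Serpinb6a, the mouse counterpart of human SERPINB6 and an inhibitor of cathepsin G, showed the smallest ratio. The small intestine had a mean of 193 CPM, and the spleen sets had 50.7, 61.0 and 46.4 CPM. Cells without a read were common in both tissues: the median was 4.77 CPM in the small intestine and 0 in each spleen set, with highest values of 2684 and 1474 CPM. At least 10 reads were present in 44.9% of small intestine cells (36.3% to 53.6%), against 16.5%, 14.5% and 13.9% of the cells of the spleen sets. Ctsg, encoding cathepsin G, had no read in the small intestine cells and a mean of 0.128 CPM in the spleen.

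Serpinb1a, which inhibits elastase and related proteases of neutrophils, had a mean of 351 CPM in the small intestine. The means of the spleen sets were 38.2, 61.0 and 32.8 CPM. In p2, 1 cell at 2899 CPM held 72.5% of this, and the mean without it was 9.07 CPM. Its median was 0 in all sets, small intestine included, and the highest small intestine cell held 3651 CPM. It was present with at least 10 reads in 43.4% of small intestine cells (34.9% to 52.1%), while the pooled spleen share was 8% (5.54% to 11.1%). Among the spleen sets, columns 13 to 24 of p1 had the highest share at 11.7% (6.98% to 18.1%) and p2 the lowest at 4.92% (1.83% to 10.4%), and these intervals overlapped. Of the known targets of Serpinb1a, Elane and Prtn3, encoding neutrophil elastase and proteinase 3, had no read in any kept cell.

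Serpine2, also called protease nexin, is secreted and inhibits thrombin and plasminogen activators. It was a gene of few cells. Gut cells had a mean of 146 CPM, and the spleen sets had 2.65, 2.95 and 1.21 CPM, of which 1 cell held 100%, 52.4% and 52.7%. Of 136 small intestine cells, 25 held at least 10 reads (18.4%, interval 12.3% to 25.9%). Of 400 spleen cells, 5 did (1.25%, interval 0.407% to 2.89%). The 14 cells with the highest values held 86.4% of the Serpine2 CPM of the small intestine, where the highest cell reached 3661 CPM. The log2 ratio ran between 5.18 and 5.91 when each kept cell was left out in turn, so no single cell carried the call.

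**Figure D1:**
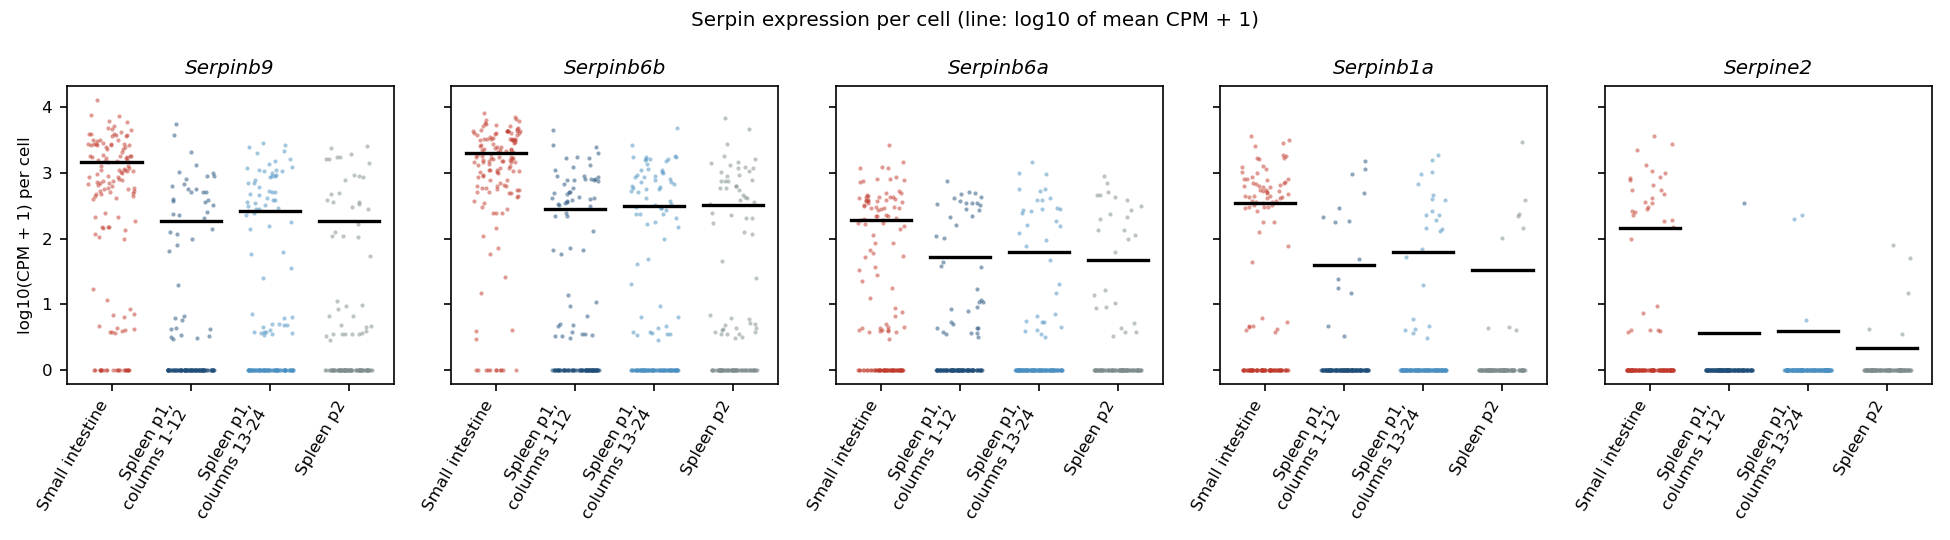
Expression of the 5 serpins as log10(CPM + 1) on the vertical axis, with 1 point per kept cell (136 small intestine cells, 133, 145 and 122 cells of the spleen sets) and a black line at the mean CPM of the set on the same scale. Serpinb6b was above 0 in most small intestine cells, with a mean of 2014 CPM there, and Serpine2 stayed at 0 in nearly all spleen cells.

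**Figure D2:**
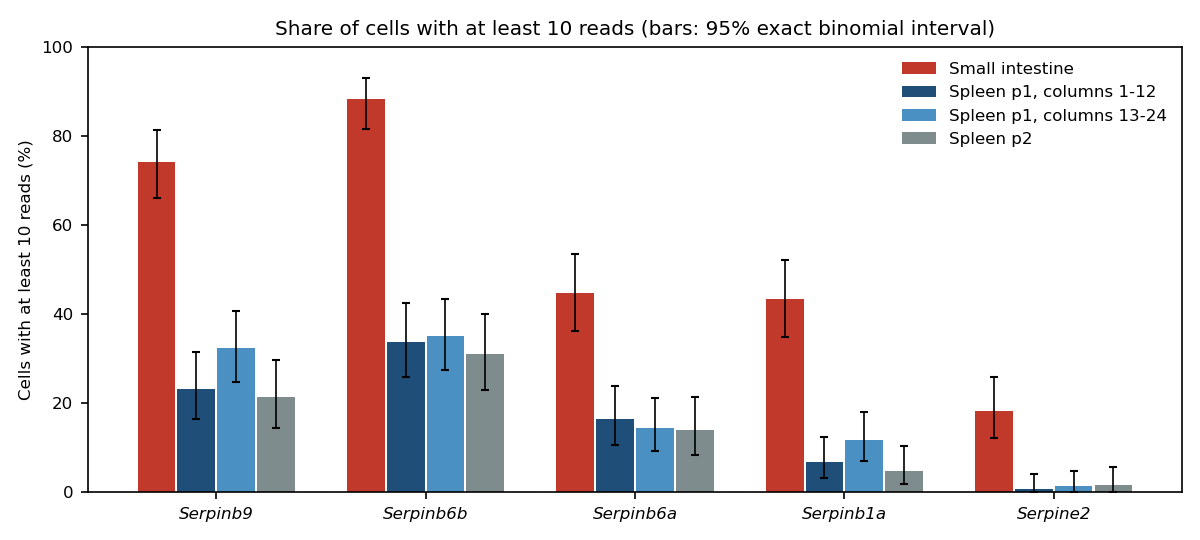
Share of cells with at least 10 reads of each serpin in the small intestine and the 3 spleen sets, with 95% exact binomial intervals as error bars. The small intestine share was the highest of the 4 sets for each serpin, from 88.2% for Serpinb6b to 18.4% for Serpine2.

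The median number of reads per kept cell was 324841 in the small intestine and 366140, 362505 and 315920 in the spleen sets, so the shares were also read after thinning each cell to 200000 reads. They were then 74.0% and 26.0% for Serpinb9, 88.5% and 32.9% for Serpinb6b, 42.7% and 14.1% for Serpinb6a, 43.5% and 7.69% for Serpinb1a, and 17.6% and 1.33% for Serpine2, small intestine before spleen. This left out 5 gut and 23 spleen cells with fewer reads.

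The members reached these ratios in different ways. For Serpinb9 the share of cells with at least 10 reads was 2.86 times that of the spleen and the mean CPM within such cells was 2.39 times that of the spleen. The corresponding values for Serpinb6b were 2.63 and 2.54, so that both more cells and higher levels entered its ratio. For Serpinb6a the share was 2.99 times that of the spleen but the level within cells was only 1.22 times that of the spleen, between 1.03 and 1.41 against the single spleen sets. Serpinb1a had a share 5.42 times and a mean level 1.45 times that of the spleen, but its median level within such cells was 540 CPM against 249 CPM, a wider gap than for Serpinb6a (329 against 288 CPM). Serpine2 had 14.7 times the share and 4.38 times the level, the latter resting on 5 spleen cells.

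Levels of different genes can be set side by side only per length. As mean CPM per kilobase of annotated exon, the order in the small intestine was Serpinb6b (890), Serpinb9 (414), Serpinb1a (152), Serpinb6a (35.6) and Serpine2 (17.6). The exon length of Serpinb6a includes transcripts that overlap its neighbours, and reads of those neighbours may or may not be in its count, so its value per kilobase is uncertain in both directions. In each of the spleen sets Serpinb6b (123 to 142) was also above Serpinb9 (52.2 to 75.2), which was above Serpinb1a (14.2 to 26.5). Gzmb stood at 13267 CPM per kilobase in the small intestine.

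Several serpins were often present in the same small intestine cell. The mean number of members with at least 10 reads per cell was 2.69 in the small intestine and 0.838 in the spleen (0.812, 0.952 and 0.730 over the sets). Cells in which no member reached 10 reads numbered 4 of 136 in the small intestine (2.94%, interval 0.807% to 7.36%) but 197 of 400 in the spleen (49.2%, interval 44.2% to 54.3%). All 5 were present in 3 small intestine cells. In the spleen 0 of 400 cells had all 5 (exact interval up to 0.918%).

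Serpinb9 and Serpinb6b went together most closely. Over cells, the Spearman correlation of their log2(CPM + 1) values was 0.63 in the small intestine (n = 136 cells) and 0.50, 0.44 and 0.44 in the spleen sets. In the small intestine, 99 of the 101 cells with at least 10 Serpinb9 reads also had at least 10 Serpinb6b reads, against 21 of the 35 other cells. In the spleen these numbers were 69 of 104 and 65 of 296. The cells of a set share a tissue and a plate code and are not replicates, so these correlations describe the sets.

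For this pair the promoter sequences are shown, as RefSeq gives them in GRCm38.p6, from 250 bases before to 50 bases after a start of transcription in RefSeq. For Serpinb9 this start lies 1291 bases downstream of the first base of the gene given above from GENCODE, and for Serpinb6b 52 bases downstream. Serpinb9 (chr13:33004291-33004590, plus strand) and Serpinb6b (chr13:32965011-32965310, plus strand) were searched on both strands for 5 motifs: TGANTCA (AP-1), CACGTG (E-box), TGTGGT (Runx), GAAA and GAAA with any 2 bases between them (IRF, interferon regulatory factors), and GGG and CC with any 5 bases between them (NF-kappaB). N stands for any base, and matches of different motifs could overlap. Capitals mark the matches.
Serpinb9: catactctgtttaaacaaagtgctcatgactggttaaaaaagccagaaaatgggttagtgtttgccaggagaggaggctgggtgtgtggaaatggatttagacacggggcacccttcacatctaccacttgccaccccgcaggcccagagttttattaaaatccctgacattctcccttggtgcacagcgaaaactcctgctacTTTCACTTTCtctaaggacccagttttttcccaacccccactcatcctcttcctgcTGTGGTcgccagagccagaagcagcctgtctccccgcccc
Serpinb6b: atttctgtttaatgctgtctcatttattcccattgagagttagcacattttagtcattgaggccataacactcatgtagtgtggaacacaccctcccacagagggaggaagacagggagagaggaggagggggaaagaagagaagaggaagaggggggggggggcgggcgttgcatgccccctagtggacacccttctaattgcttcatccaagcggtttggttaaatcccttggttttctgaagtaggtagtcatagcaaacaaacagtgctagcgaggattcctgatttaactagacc
The Serpinb9 window held an IRF match on the minus strand whose first base lay at -46 from the RefSeq start, and a Runx match at 11. The Serpinb6b window held none of the 5 motifs. Of 32851 promoter windows of the same length, 3.44% held the IRF motif, 16.8% Runx, 7.81% AP-1, 7.15% the E-box and 50.8% the NF-kappaB motif. A match in these letters is a description of the window, and no binding was measured here.

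No other pair of members was correlated to this degree in the small intestine. Serpinb9 and Serpinb1a had a correlation of -0.10 there and of 0.22 to 0.29 in the spleen sets, and Serpinb6b and Serpinb1a of -0.07 and of 0.13 to 0.35. Serpinb6a had correlations between -0.11 and 0.01 with all the other members in the small intestine. In the spleen most of its values rest on few cells, since 13 to 17 cells of a set had a read of both Serpinb6a and Serpinb9.

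The relation of the serpins to the granzymes was examined next, cell by cell. Gzmb, encoding granzyme B, had a mean of 19051 CPM in gut cells, and 1903, 1187 and 1375 CPM in the spleen sets. Gzma, encoding granzyme A, had 36458 CPM in gut cells, against 18.9, 6.45 and 82.7 CPM. Both granzymes were correlated in the small intestine (Spearman 0.61), so relations to one are not independent of relations to the other. A low count of Gzma needs care on p2: 75.4% of p2 spleen cells had 1 to 9 Gzma reads, against 1.5% and 4.83% in the p1 sets, and 55.7% had 1 to 9 Gzmb reads, against 27.1% and 30.3%. For Serpinb9 and Serpinb6b 14.8% of p2 spleen cells had 1 to 9 reads, against 8.97% to 11.7% in the p1 sets. Its part in the results was not tested. All small intestine cells are on p2 as well. Each had a read of both granzymes, with 1 to 9 reads in 13.97% of them for Gzma and 10.29% for Gzmb. Shares are given from 10 reads, whereas correlations and the splits by a Foxp3 or Cd8a read use all reads. The limit of 10 reads does not remove all low counts, since small intestine well P16 passed it with 27.04 CPM of Gzma.

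Serpinb9 was positively correlated with Gzmb in all 4 sets. The Spearman correlation was 0.41 in the small intestine (n = 136 cells) and 0.28, 0.35 and 0.33 in the spleen sets (n = 133, 145 and 122 cells). Serpinb6b had 0.31 in the small intestine and 0.43, 0.36 and 0.35 in the spleen sets. Total reads per cell were only weakly related to either gene (-0.16 to 0.15 over the 4 sets). With Gzma, the small intestine correlations were 0.33 for Serpinb9 and 0.34 for Serpinb6b, and in the spleen, where 22 of 400 cells had at least 10 Gzma reads, they ran from -0.11 to 0.13 and from -0.08 to 0.16.

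The other members did not follow this pattern. Serpinb1a changed sign between the tissues, with -0.20 against Gzmb in the small intestine and 0.21, 0.19 and 0.22 in the spleen sets. The spleen values rest on 8 to 19 cells per set with a read of both genes. Serpinb6a had -0.03 in the small intestine, and -0.07, 0.01 and 0.26 in the spleen sets. Serpine2 had 0.26 in the small intestine. All of its 25 cells with at least 10 reads there also had at least 10 Gzmb reads, as did 122 of all 136 cells (89.7%). In the spleen sets, with 1 to 5 cells holding a read of both, its values of -0.03 to 0.11 carry little. With Gzma, the small intestine correlation was -0.18 for Serpinb1a, 0.05 for Serpinb6a and 0.11 for Serpine2. Whether the tissues differ in these correlations was not tested.

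**Figure D3:**
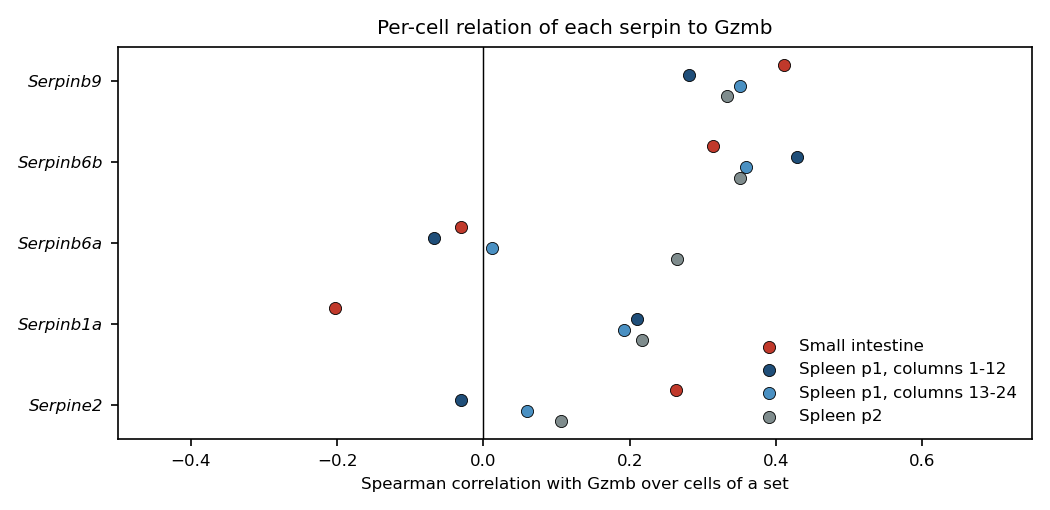
Spearman correlation of each serpin with Gzmb over the kept cells of a set (horizontal axis), 1 point per set. Serpinb9 and Serpinb6b lay between 0.28 and 0.43 in all 4 sets, and Serpinb1a lay at -0.20 in the small intestine and near 0.2 in the spleen sets.

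**Figure D4:**
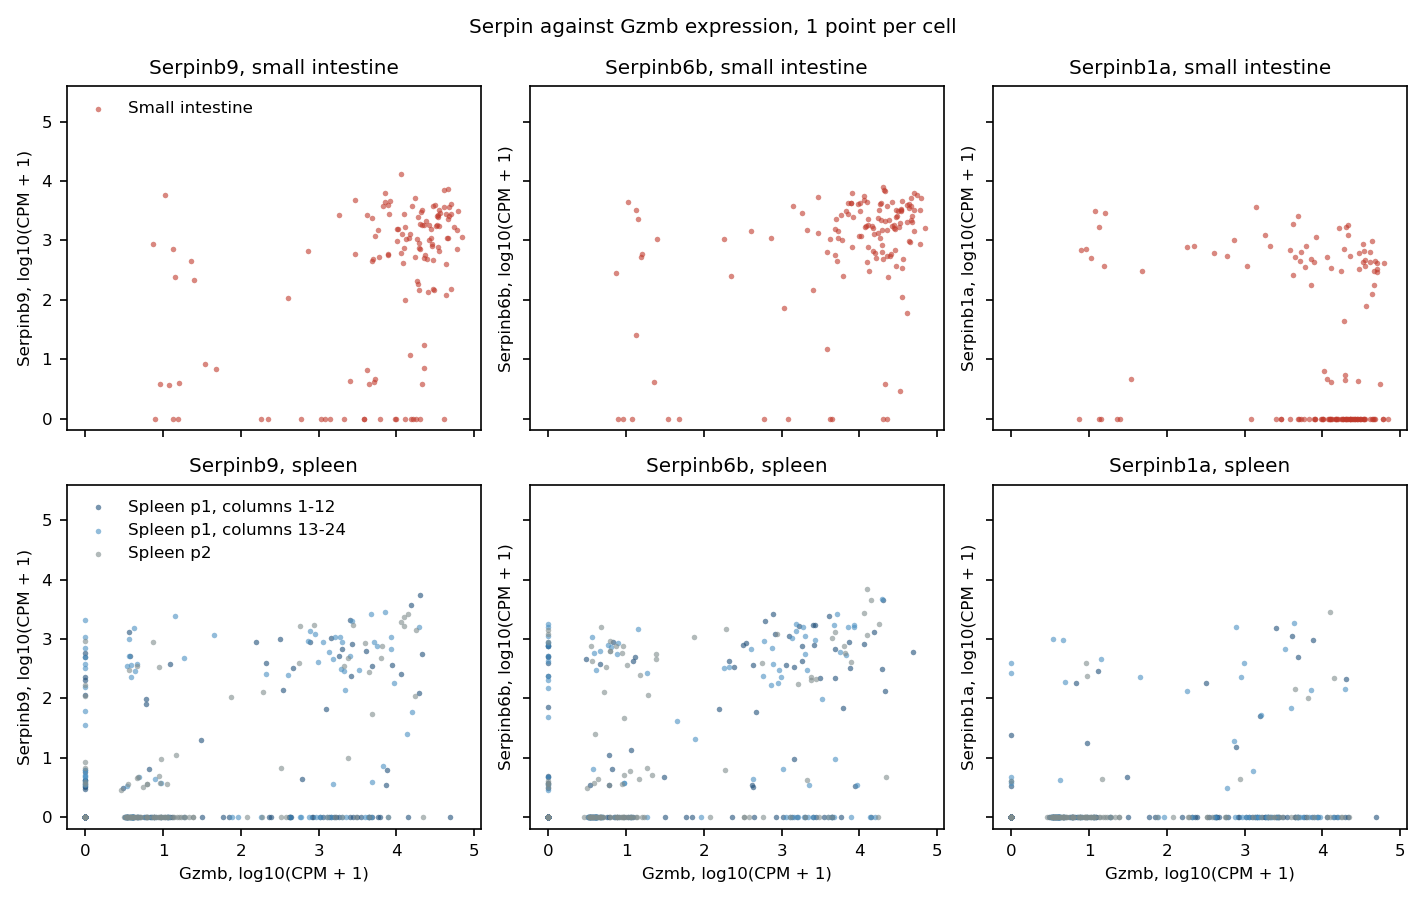
Expression of Serpinb9, Serpinb6b and Serpinb1a (vertical axes) against Gzmb expression (horizontal axis), both as log10(CPM + 1), with 1 point per kept cell of the small intestine (upper row) or the 3 spleen sets (lower row). Of the 122 small intestine cells with at least 10 Gzmb reads, 113 had at least 10 Serpinb6b reads and 71 had fewer than 10 Serpinb1a reads.

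Small intestine cells were then divided into 3 classes of 46, 45 and 45 cells by their Gzmb CPM. From the lowest to the highest class, the share with at least 10 Serpinb9 reads was 50% (34.9% to 65.1%), 75.6% (60.5% to 87.1%) and 97.8% (88.2% to 99.9%), and the mean was 984, 1431 and 1933 CPM. For Serpinb6b the share was 73.9%, 93.3% and 97.8%. For Serpinb1a the order was the other way at the bottom: 63% (47.5% to 76.8%) of the lowest class had at least 10 reads, against 24.4% (12.9% to 39.5%) and 42.2% (27.7% to 57.8%). Its mean was 639, 221 and 185 CPM over the classes. Serpinb6a stayed level, at 45.7%, 44.4% and 44.4%, and Serpine2 had 6.52%, 17.8% and 31.1%. Median total reads were alike in the 3 classes, between 321470 and 327871.

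In the spleen, where many cells lacked Gzmb, cells with at least 10 Gzmb reads were set against the others. Serpinb9 had at least 10 reads in 68 of 134 cells with Gzmb (50.7%, interval 42.0% to 59.5%) and in 36 of 266 others (13.5%, interval 9.66% to 18.2%). Within the sets, in plate order, the shares were 39.6% against 12.5%, 57.1% against 19.8% and 59.4% against 7.78%. The difference therefore had the same direction in each set. For Serpinb6b the pooled shares were 59% (50.1% to 67.4%) and 20.7% (16% to 26.0%), and for Serpinb1a 16.4% (10.6% to 23.8%) and 3.76% (1.82% to 6.8%), each with the same direction in all 3 sets. Serpinb6a had 17.9% (11.8% to 25.5%) and 13.5% (9.66% to 18.2%), with overlapping intervals. Its direction differed between the sets, with 9 of 53 cells against 13 of 80, 6 of 49 against 15 of 96 and 9 of 32 against 8 of 90.

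Cells with Gzmb still differed between the tissues. Among cells with at least 10 Gzmb reads, Serpinb9 was present in 77.9% of small intestine cells (69.5% to 84.9%) and 50.7% of spleen cells, and Serpinb6b in 92.6% (86.5% to 96.6%) and 59%. Serpinb6a was present in 45.9% (36.9% to 55.2%) and 17.9%, and Serpinb1a in 41.8% (32.9% to 51.1%) and 16.4%. In the 14 small intestine cells with fewer than 10 Gzmb reads, Serpinb9 was present in 42.9% (17.7% to 71.1%) and Serpinb6b in 50% (23% to 77%). The Gzmb level of cells past 10 reads was not equal between the tissues, with means of 21236 and 4419 CPM.

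Relative to the reads of Gzmb, the clade B serpins were not higher in the gut. Serpinb9 had 7.75 reads per 100 Gzmb reads in the small intestine, against 10.6, 23.4 and 13.1 in the spleen sets. Serpinb6b had 10.3 against 15.3, 27.5 and 23.3. For Serpinb6a the values were 0.954 against 2.87 to 5.34, and for Serpinb1a 1.90 against 1.94 to 5.10, so that all 4 clade B members had their lowest value in the small intestine. For Serpinb1a this order rested on single cells, since leaving out 1 cell brought columns 1 to 12 of p1 to 1.20 and p2 to 0.697. For the other clade B members no single cell changed it: the spleen sets stayed at or above 9.31 for Serpinb9, 13.99 for Serpinb6b and 2.59 for Serpinb6a, and the small intestine at or below 7.92, 10.6 and 0.979. Serpine2 was higher there, with 0.777 against 0.0663 to 0.250, and stayed at or above 0.632 there and at or below 0.287 in the spleen sets when any 1 cell was left out. These ratios compare sets for 1 gene at a time, since gene length differs between genes.

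**Figure D5:**
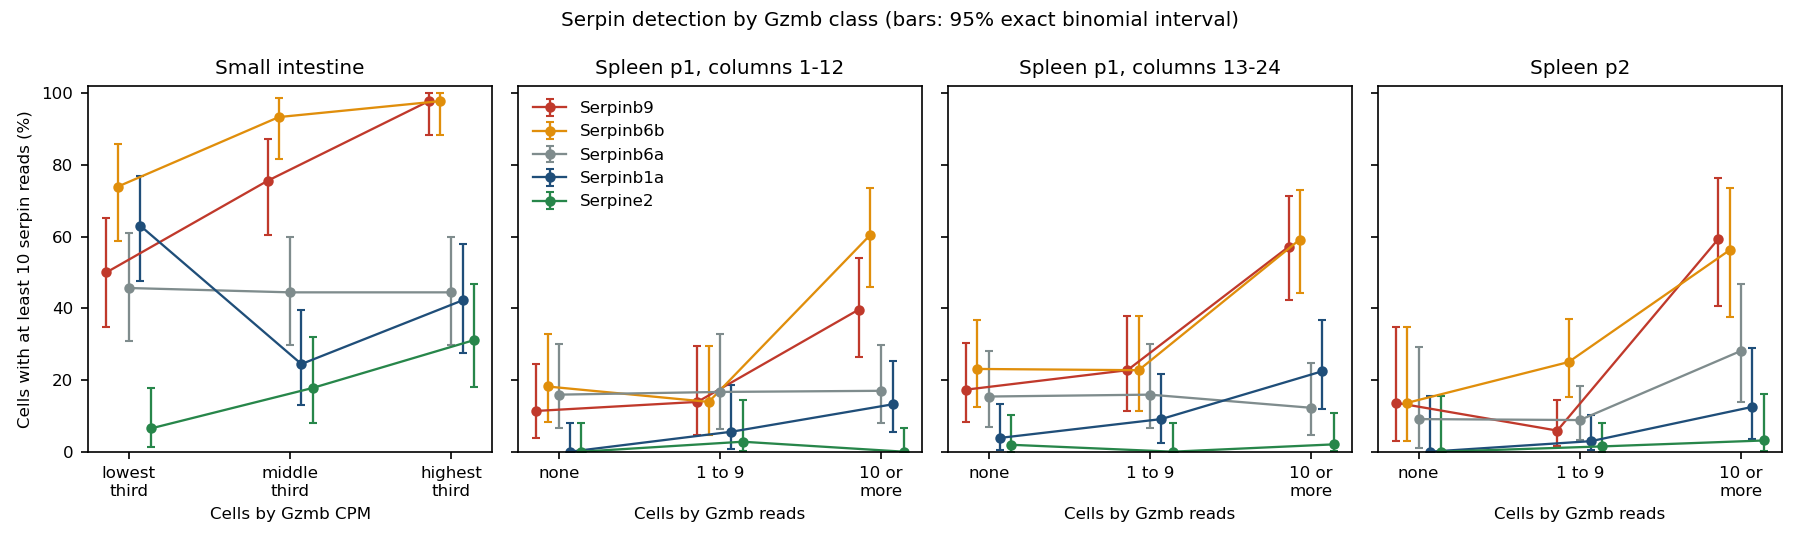
Share of cells with at least 10 reads of each serpin (vertical axis, with 95% exact binomial intervals) by Gzmb class, for the small intestine in 3 classes of Gzmb CPM and for the spleen sets by Gzmb reads (none, 1 to 9, 10 or more). Serpinb9 went from 50% to 97.8% of cells over the small intestine classes while Serpinb1a had its highest share, 63%, in the lowest class.

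In small intestine cells sorted by both granzymes, 110 cells had at least 10 reads of each, 12 had Gzmb only, 7 had Gzma only and 7 had neither. Among those with Gzma only, wells B24 and F16 of p2 held 16280 and 13081 CPM of Gzma. The others, wells B14, D24, J15, O21 and P16, held 27.04 to 69.98 CPM, just past the limit. Whether such low counts on p2 stand for expression of Gzma was not tested. Serpinb6b was present in 96.4% of the cells with both (91.0% to 99%) and Serpinb9 in 81.8% (73.3% to 88.5%). In the 12 cells with Gzmb only these shares were 58.3% (27.7% to 84.8%) and 41.7% (15.2% to 72.3%). Serpinb1a was present in 40% (30.8% to 49.8%) of the cells with both granzymes and 58.3% (27.7% to 84.8%) of those with Gzmb only. Its share was 71.4% (29% to 96.3%) of the 7 cells with Gzma only and 42.9% (9.9% to 81.6%) of the 7 with neither. The small classes leave wide intervals, and those of Serpinb1a overlap.

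Regulatory T cell content differed between the spleen sets, so the members were also read in cells with and without a Foxp3 read. In columns 1 to 12 of p1, Serpinb9 had at least 10 reads in 20% (12.1% to 30.1%) of the 85 cells with a Foxp3 read and 29.2% (17% to 44.1%) of the 48 others. Serpinb6b had 36.5% (26.3% to 47.6%) and 29.2%. In columns 13 to 24 of p1, Serpinb9 had 34.6% (17.2% to 55.7%) of 26 cells with a Foxp3 read and 31.9% (23.7% to 41.1%) of 119 others, the opposite order. In p2, with 8 cells that had a Foxp3 read, it had 12.5% (0.316% to 52.7%) and 21.9%. All these intervals overlapped. In the small intestine, the 9 cells with a Foxp3 read had a mean of 458 CPM of Serpinb6b and 231 CPM of Serpinb9, against 2124 and 1532 CPM in the 127 others. In the 39 small intestine cells with a Cd8a read, Serpinb9 (1263 CPM) and Serpinb6b (1495 CPM) were also well above the spleen means. Leaving out all cells with a Cd8a read, the log2 ratio between tissues was 2.83 for Serpinb9, 2.86 for Serpinb6b, 1.80 for Serpinb6a, 3.06 for Serpinb1a and 5.71 for Serpine2. Leaving out all cells with a Foxp3 read, it was 2.66, 2.78, 1.86, 2.98 and 5.17 in the same order, so all 5 stayed at least 1. Serpine2 was present in 7.69% (1.62% to 20.9%) of the cells with a Cd8a read and in 22.7% (14.8% to 32.3%) of the 97 others.

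Cells called S or G2M were not part of the values above. In p2 spleen, 59.6% (45.8% to 72.4%) of the 57 such cells had at least 10 Serpinb6b reads, against 31.1% of the kept cells, and 38.6% had at least 10 Serpinb9 reads, against 21.3%. In columns 13 to 24 of p1 the Serpinb9 share was 53.8% (37.2% to 69.9%) of 39 cells, against 32.4%. In columns 1 to 12 of p1 it was 31.9% (19.1% to 47.1%) of 47 cells, against 23.3%. The mean there was lower in the cells called S or G2M (139 against 186 CPM for Serpinb9 and 222 against 278 CPM for Serpinb6b). For the same genes in order, it was higher in columns 13 to 24 of p1 (530 against 263 and 631 against 308 CPM). It was also higher in p2 (226 against 182 and 478 against 321 CPM). Small intestine means were 1421 against 1446 and 1584 against 2014 CPM. In the small intestine the 35 such cells had 77.1% for both genes, against 74.3% (Serpinb9) and 88.2% (Serpinb6b) of kept cells.

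The genes most like each member were found by the median of the 4 correlations within sets, over 8307 genes. For Serpinb9 they were Serpinb6b (0.47), Nkg7 (0.40), S100a4 (0.36), Ccl4 (0.35) and Anxa2 (0.34), with Gzmb next in order (0.34). For Serpinb6b they were Serpinb9, Nkg7 (0.39), S100a4 (0.37), Gzmb (0.35) and Anxa2 (0.31). Nkg7, a granule membrane protein of cytotoxic cells, had correlations of 0.50 with Serpinb9 and 0.42 with Serpinb6b in the small intestine alone, where S100a4 had 0.03 and -0.02. Serpinb1a had other neighbours: 1700012B07Rik (0.34), Ccr1 (0.29), Ltb4r1 (0.28), Cxcr6 (0.27) and Serpinb9 (0.24). The first of these reached 0.45 in the small intestine, and Ccr1 and Ltb4r1, receptors of chemokines and of leukotriene B4, 0.39 and 0.35. In columns 1 to 12 of p1 these were 0.19, -0.05 and 0.22. For Serpinb6a the highest medians were 0.24 (Ccr1) and 0.23 (Ier3, Rnf125), followed by Cxcr6 and Sh3bgrl3 (0.22), and for Serpine2 they were 0.23 (Itfg2, Bcs1l), 0.22 (Cd320), 0.21 (Wdyhv1) and 0.20 (Mfsd7b). Such weak values in sparse counts are given for completeness only.

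Among the proteases that serpins and other inhibitors act on, the granzymes stood out. All 3 granzymes with a mean of at least 10 CPM were higher in the small intestine, Gzma (log2 ratio 10.03), Gzmb (3.68) and Gzmk (2.86). Of 8 other granule genes, Prf1, encoding perforin, was higher (242 against 49.8 CPM, log2 ratio 2.26). Lamp1 was lower, at a log2 ratio of -1.01 that fell short of the rule when any 1 of 142 cells was left out. Of 10 cathepsins tested, Ctsw (2.59) and Ctsl (1.94) were higher and Ctse (-1.76) and Ctsz (-1.59) were lower. Of 8 caspases 0 were called in either direction. These counts stand beside 7.43% higher and 15.2% lower over all 8362 genes.

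Of 5 extracellular serine proteases and receptors, Furin (2.66) and Plat (3.12), encoding tissue plasminogen activator, a target of Serpine2, were higher and the protease-activated receptor gene F2rl1 (-1.65) was lower. Plat had 21.6 CPM in gut cells and 3.42, 0.713 and 0.651 CPM in the spleen sets. Of 5 inhibitors of other families tested, Spint2, an inhibitor of membrane serine proteases, was lower (-1.55) and 0 were higher. Of all 8362 genes 15.2% were lower and 7.43% higher, so lists of this size say little by their counts. Cst7, a cystatin of cytotoxic cells, had 467 CPM in gut cells, against 749, 548 and 356 CPM in the spleen sets, a spread among spleen sets wider than its difference between tissues. The median log2 ratio over the granule genes was -0.02 and over the cathepsins 0.13, beside -0.21 over all 8362 genes.

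Of the remaining 58 serpin rows, 27 lacked any read in the kept cells. Serpina3g had 402 CPM in gut cells, against 347, 588 and 284 CPM in the spleen sets (log2 ratio -0.05). Its share of cells with at least 10 reads was nonetheless higher in the small intestine, 64% (55.3% to 72%) against 31% (26.5% to 35.8%). Serpina3f (log2 ratio -2.07) was lower in the small intestine, with 23.3 CPM against 54.9, 172 and 68.4 CPM in the spleen sets. Serpinf1 (-2.27) was also lower, with 4.12 CPM against 16.4, 19.5 and 36.8 CPM. Serpinb9b, the close paralog of Serpinb9, had a log2 ratio of 2.50, but it reached 10 reads in 4 cells of each tissue, and leaving out 1 small intestine cell brought the ratio to 0.99. Serpinb1b reached 10 reads in 7 gut cells (5.15%, interval 2.09% to 10.3%) but in 1 spleen cell, and its mean was below the limit of the tested genes.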

How the data were processed

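Read counts per gene were deposited by the authors as 1 table per tissue with 1 column per cell. Per the labels and the study's methods, paired-end SMART-seq2 reads were aligned with STAR in a 2-pass mode. For length-scaled values (RPKM), the methods name uniquely aligned reads and a correction called MULTo. Whether the deposited counts were made the same way is not given in the sources used here. Nor are the counting tool, its handling of overlapping genes, or the annotation. The submitters' processing notes name mm10 and the methods name an older mouse build, so positions and sequences, taken from GENCODE M21 and RefSeq (GRCm38), describe the genes and not the alignment. RefSeq promoter sequences were found for 4 of the 5 members. Mouse protein sequences were not used here.

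CPM was computed here per cell over all gene rows without the eGFP reporter row (0.00979% of reads). No column was left out. Cells falling under the tissue's median by over 3 median absolute deviations, in log total reads or log number of genes, were removed (31 spleen and 19 small intestine cells), as were cells that cyclone (scran 1.30.0, R 4.3.3; 632 of its 667 markers present) called S or G2M. No doublet caller was run, since cells were sorted singly into wells. 88 rows join several genes under 1 name, none of them a serpin. Intervals are 95% exact (Clopper-Pearson) over cells and cover counting error only. Several reads can come from 1 molecule, so reads are no count of molecules. For a share of 0 the upper end of the exact interval applies. Correlations are over cells of log2(CPM + 1). A value of 10 reads corresponds to about 30.8 CPM in the median small intestine cell and 28.3 CPM in the median spleen cell.

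The members, gene lists and rules were chosen with earlier results of these data known. The genes named are the members, Gzmb, Gzma, Foxp3, Prf1 and Cst7, listed partner genes that were called, other serpins with at least 10 reads in at least 5% of a set, and the 5 genes most like each member. Serpinb9b, cell markers, target genes without reads and genes that overlap or resemble a member in sequence were named after their values were seen. Alternatives changed the filters, the pseudocount, the scaling (TMM from edgeR 4.0.16 and the median of ratios from DESeq2 1.42.0), the read minimum, the depth and the correlation. Leaving out each cell in turn, over all cells and within each set, was added after seeing the data. The calling rule was tested on simulated cells drawn independently, without differences between animals or well sets. That simulation therefore cannot show how often the rule would call genes from spread between animals.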

Additional observations from a re-analysis of the deposited data

Results flagged for a closer look

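The cells removed for few reads were outside all comparisons. Their median total was 128077 reads in the small intestine and 128936 in the spleen. Members are listed where their share passed that of 3 cells of the group, a limit for listing and not an expected share. In the 19 low-read small intestine cells, at least 10 reads were present in 57.9% for Serpinb6b, 47.4% for Serpinb9 and 21.1% for Serpinb6a. The kept cells there had 88.2%, 74.3% and 44.9%. In the 31 low-read spleen cells the shares were 41.9% for Serpinb6b, 22.6% for Serpinb9 and 12.9% for Serpinb6a. No explanation was tested.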

How the results depend on the processing

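The direction of each member's difference between tissues held under all alternatives, while correlations near 0 could change sign. Of 85 alternative log2 ratios, 68 correlations with Gzmb and 30 with Gzma, 73, 53 and 26 moved by no more than 1 SD over the 3 spleen sets, and of 50 shares 42 stayed within their binomial interval. The ratios against single spleen sets are among the alternatives and also give that SD. For the correlations with Gzmb the SD was 0.173 for Serpinb6a but 0.013 for Serpinb1a, and it does not measure spread in the small intestine. These counts are therefore no measure of robustness. Leaving out each of the 536 cells in turn left the log2 ratio at 2.67 to 2.85 for Serpinb9, 2.70 to 2.81 for Serpinb6b, 1.70 to 1.94 for Serpinb6a, 2.84 to 3.19 for Serpinb1a and 5.18 to 5.91 for Serpine2. No paired analysis was possible because each sample was 1 cell and the groups shared no replicate number.

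The values that moved follow, and the cause was not tested unless the construction shows it. With the mean of log2 values per cell in place of the log2 of the mean, the ratio was 5.25 for Serpinb9, 6.13 for Serpinb6b, 2.59 for Serpinb6a and 1.66 for Serpine2. Against 1 spleen set, it was 2.46 for Serpinb9 (p1 columns 13 to 24), 2.85 for Serpinb6b (p1 columns 1 to 12) and 6.05 for Serpine2 (p2). For Serpinb6b it was 2.90 with TMM, 2.92 with the median of ratios, 2.86 without cells with a Cd8a read and 2.51 with S and G2M cells kept. A pseudocount of 10 brought Serpine2 to 3.66.

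With a minimum of 1 read, the share was 84.6% for Serpinb9 and 59.6% for Serpinb6a in the small intestine, and 37.8% for Serpinb9, 44.8% for Serpinb6b, 25% for Serpinb6a and 11.8% for Serpinb1a in the spleen. With 50 reads Serpinb6a had 11.5% in the spleen, and with S and G2M cells kept Serpinb6b had 38.5% there.

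Over cells with a read of both genes, the correlation with Gzmb was 0.30 (Serpinb9), 0.21 (Serpinb6b), -0.37 (Serpinb1a) and 0.18 (Serpine2) in the small intestine and 0.31 for Serpinb6b over the spleen sets, and that with Gzma was 0.20 (Serpinb6b) and -0.42 (Serpinb1a). Serpinb1a and Serpine2 have no spleen value there, since at least 1 set had fewer than 10 such cells. As Pearson's r, the value with Gzmb was 0.43 (Serpinb6b) and -0.22 (Serpinb1a) in the small intestine and 0.44 (Serpinb9) and 0.25 (Serpinb1a) in the spleen, and with Gzma 0.53 for Serpinb6b. With S and G2M cells kept, the small intestine gave 0.45 (Serpinb9) and 0.36 (Serpinb6b) with Gzmb, and -0.031 for Serpinb6a with Gzma, which was 0.05 without them. Thinned to 200000 reads, it was 0.36 for Serpinb9 in the spleen and -0.19 for Serpinb1a in the small intestine, and without cells with a Foxp3 read Serpinb1a had -0.24 in the small intestine and 0.23 in the spleen.

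The number of genes called higher and lower was 1162 and 1981 at a mean of at least 1 CPM, 1326 and 2087 without a minimum, 1329 and 2642 at a log2 ratio of 0.5, and 217 and 316 at 2, where 4 of the 5 members stayed called. With 1 sample per tissue and 1 or 2 cells of each spleen set with at least 10 reads, the spleen values of Serpine2 rest on few cells.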
